A study of Mus musculus with 40 samples.

Results

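The comparison described here is that of the cerebellum of wild-type (WT) mice at 19 months with that of WT mice at 3 months. It was made on the 5 libraries titled wild-type at each of these ages, 10 of the 40 libraries of the series, and on all genes that reached at least 1 CPM (counts scaled to a common library size) in every library of one or both ages, 13204 of the 21967 genes in the table. The series holds polyA RNA of whole cerebellum from WT animals and SCA6 84Q/+ animals, which carry an expanded CAG repeat in 1 allele of Cacna1a, at 3, 6, 12 and 19 months, with 5 libraries for each genotype and age. WT mice were the controls of that model and carried no transgene, Cre or treatment, so the 2 groups differ in age by their titles, and also in a number in their library names. Neither strain nor sex is given in the labels, and nothing in them says whether littermates were used. Per the study's methods samples were prepared individually; the labels do not name the animals, and p-values measure the spread between these libraries.

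The cerebellar cortex is built from Purkinje cells, which form its output, granule cells, inhibitory interneurons and Bergmann glia, with oligodendrocytes in the white matter. Microglia are the resident macrophages of this tissue, and ageing of the brain is known to bring a rise of interferon response, complement and microglial transcripts. Type I interferon acts through STAT and IRF factors that bind a short repeated motif, the interferon-stimulated response element, upstream of its target genes.

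Library totals lay between 51121453 and 77183667 counts at 3 months and between 38782918 and 62779818 at 19 months, with the lowest total in replicate 1 of the older group. Transcripts of granule cells (Gabra6, 1020 to 1290 CPM) and Purkinje cells (Calb1, 842 to 1220 CPM) were present in all 10 libraries. Transcripts from the Y chromosome (Ddx3y, Eif2s3y, Kdm5d and Uty) were present in replicates 2 and 5 at 3 months and in all 5 libraries at 19 months, so sex was not balanced between the ages. The library names also carry a number that no source used here explains, called the ID number below. It was 34 or 35 at 3 months and 9, 10 or 12 at 19 months, so age and ID number cannot be told apart in this comparison. In bulk tissue, fewer cells of a type and less RNA per cell cannot be told apart either.

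More transcripts were called higher than lower at 19 months, by a margin that depended on the fold change required. A call required a log2 fold change of at least 0.3 in either direction and a Benjamini-Hochberg adjusted p no higher than 0.05 in edgeR's quasi-likelihood test. By this rule 891 genes (6.75% of those tested) differed, of which 648 (4.91%) were higher and 243 (1.84%) lower at 19 months. With no minimum fold change the split was close to even, with 1127 genes higher and 997 lower (53.1% higher, against 72.7% with the minimum). The share higher was 59.9% of calls in the 2 younger and 5 older libraries with Y-linked transcripts and 59.0% once a covariate for Y-linked expression was added. Of the genes called, 94 rose by 1 or more on the log2 scale, and 7 genes fell by as much. The highest log2 fold change was 2.71 (Cxcl10, a chemokine) and the lowest −1.41 (Tnc, an extracellular matrix glycoprotein). Cxcl10 lay under 1 CPM in each 3 month library, so it passed the filter through the older group alone. Transcripts that rose were of low abundance, with a median of 5.16 CPM over both ages, against 26.4 CPM for those that fell and 33.5 CPM for all genes tested. Among the genes tested, 282 reached 1 CPM in every library of one age only, and 97 of these were called. Among the 12922 genes at 1 CPM or more in all 10 libraries, 557 (4.31%) were higher and 237 (1.83%) lower. Values of the 2 ages did not overlap for 914 genes that were higher (6.92%) and for 871 that were lower (6.6%) at 19 months.

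**Figure D1:**
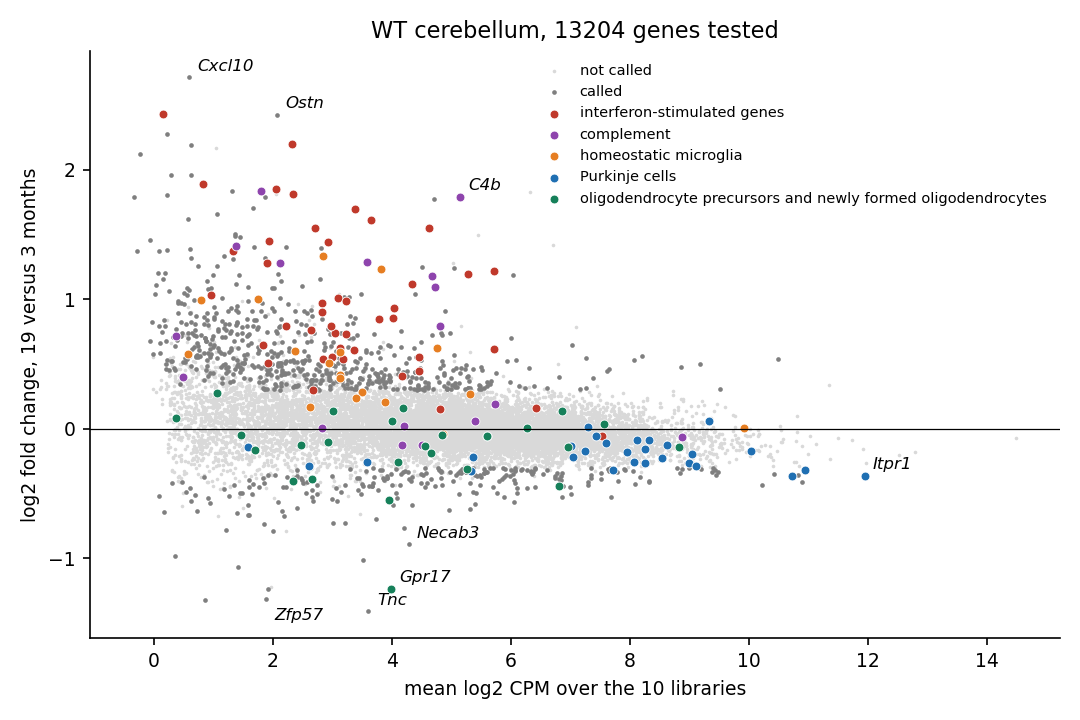
Log2 fold change between 19 and 3 months in WT cerebellum (vertical axis) against the mean log2 CPM over the 10 libraries (horizontal axis), each point 1 gene, light grey where not called and dark grey where called. Interferon-stimulated genes (red) lie mostly above 0 with a median of 0.88, whereas markers of Purkinje cells (blue), which are abundant, lie slightly below 0 with a median of −0.19.

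Genes of 5 immune lists, for interferon-stimulated genes, MHC class I and antigen presentation, complement, homeostatic microglia and activated microglia, held 136 tested genes, of which 96 were higher and none was lower by edgeR at 19 months. They supplied 45 of the 94 genes that rose by 1 or more on the log2 scale, but 14.8% of all genes that were higher. The calls of these lists depended on which libraries entered, as given below for libraries with Y-linked transcripts alone (2 against 5) and without ID number 35 (also 2 against 5). Calls over all genes fell as well in these fits. Of all genes tested 4.91% were higher over 10 libraries, 0.994% with Y-linked libraries alone and 125 of 13267 without ID number 35. Without ID number 35, 30 of the 44 interferon-stimulated genes tested were higher. Of the 648 genes higher at 19 months, 123 were in any of the lists used here, as were 48 of the 243 lower.

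Of 50 interferon-stimulated genes, 44 were tested, 40 were higher and none was lower at 19 months, with a median log2 fold change of 0.88 against 0.0026 for all genes tested. Among the 42 of them at 1 CPM or more in every library, 38 were higher and the median was 0.85. The ages did not overlap for 40 of the 44, 39 of them higher at 19 months. The exception was Adar, an RNA-editing enzyme chosen after its values were seen, at 189.8 ± 2.58 CPM at 3 months and 181.8 ± 3.67 CPM at 19 months (SD, n = 5 each), which was not called (log2 fold change −0.06, edgeR adjusted p = 0.20). CPM values below are given for replicates 1 to 5 in that order, with the standard error (SE) of the log2 fold change and the adjusted p from edgeR. Irf7, the transcription factor that amplifies the type I interferon response, was at 2.92, 2.83, 3.19, 3.44 and 4.15 CPM at 3 months and at 7.53, 8.51, 10.7, 12.1 and 9.50 CPM at 19 months. Every older library lay above every younger one, with a log2 fold change of 1.55 (SE 0.14, adjusted p = 6.1e-05). Oasl2, a homologue of the oligoadenylate synthetases that sense double-stranded RNA, was at 4.25, 5.25, 4.32, 4.97 and 5.82 CPM at 3 months and at 13.9, 17, 18.5, 17.7 and 12.3 CPM at 19 months. Its groups were also apart, with a log2 fold change of 1.70 (SE 0.13, adjusted p = 2.3e-05). Ddx60, an antiviral RNA helicase named for its fold change and not a member of the list, was at 1.43, 1.45, 1.27, 1.85 and 2.20 CPM at 3 months and at 5.59, 5.03, 6.52, 6.21 and 4.84 CPM at 19 months (log2 fold change 1.79, SE 0.16, adjusted p = 4.1e-05). Again no library of one age entered the range of the other.

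Ifit1, which binds viral RNA caps, was at 4.35, 7.78, 5.62, 6.45 and 6.82 CPM at 3 months and at 18.7, 17.3, 23.1, 18.3 and 17.1 CPM at 19 months (log2 fold change 1.62, SE 0.14, adjusted p = 4.1e-05). Bst2, a membrane protein that tethers budding virions, was at 2.01, 2.36, 1.81, 2.39 and 2.65 CPM at 3 months and at 7.02, 10.5, 7.09, 6.24 and 8.33 CPM at 19 months (log2 fold change 1.81, SE 0.15, adjusted p = 3.7e-05). Usp18, which removes ISG15 from proteins and dampens interferon receptor signalling, was at 1.49, 1.72, 1.53, 1.78 and 2.46 CPM at 3 months and at 6.48, 6.19, 7.87, 6.96 and 4.81 CPM at 19 months (log2 fold change 1.85, SE 0.16, adjusted p = 4.6e-05). In all 3 genes the ages were separate. The smallest adjusted p of the list, 7.8e-06, belonged to Trim30a and Irgm1. Trim30a, a ubiquitin ligase of the TRIM family, kept within 3.96 to 4.24 CPM at 3 months and 9.40 to 13.2 CPM at 19 months (log2 fold change 1.44, SE 0.09), and Irgm1, an immunity-related GTPase, within 11.1 to 14.8 CPM and 25.3 to 28.8 CPM (log2 fold change 1.12, SE 0.07). Ifi27l2a (log2 fold change 2.20), Lgals3bp (1.55) and Sp100, a nuclear body protein (0.90), were higher as well, as was Slfn8 of the Schlafen family (1.66), which is outside the list. Cxcl10, a chemokine induced by interferon and listed with reactive astrocytes, was at 0.251, 0.535, 0.263, 0.229 and 0.721 CPM at 3 months and at 4.72, 2.32, 1.92, 2.28 and 1.86 CPM at 19 months (log2 fold change 2.71, SE 0.36, adjusted p = 6.1e-04).

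Levels at the ages between are given as a description, and the course over age was not tested. ID numbers of the WT libraries were 7, 8 or 10 at 6 months and 2, 3 or 4 at 12 months. Y-linked transcripts were absent from replicates 2 and 5 at 6 months and from replicate 1 at 12 months. Steps between the ages thus cannot be told apart from ID number or sex. Oasl2 had a mean of 4.92 ± 0.657 CPM at 3 months, 6.02 ± 1.63 at 6 months, 12.5 ± 3.55 at 12 months and 15.9 ± 2.67 at 19 months (SD, n = 5 each). Irf7 followed at 3.31 ± 0.526, 3.56 ± 0.789, 5.89 ± 1.36 and 9.66 ± 1.78 CPM. Over the 42 interferon-stimulated genes at 1 CPM or more in every library, the mean log2 difference from the 3 month mean was −0.12 to 0.17 per library at 3 months, −0.02 to 0.21 at 6 months, 0.42 to 0.88 at 12 months and 0.75 to 1.01 at 19 months. Libraries of 12 months thus overlapped with those of 19 months on this scale, and those of 6 months with those of 3 months.

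To show an element that many promoters of interferon targets hold, the 250 bases before the gene start were read for 5 of them from the RefSeq promoter table (GRCm38.p6), where capitals mark each match to the interferon-stimulated response element, searched on both strands as GAAA, any 2 bases and GAAA, with overlapping matches merged. The stretches run 5′ to 3′ on the strand of the gene. Positions are Ddx60 at chr8:61927837-61928086 (plus strand), Ifit1 at chr19:34640639-34640888 (plus), Cxcl10 at chr5:92348890-92349139 (minus), Bst2 at chr8:71537473-71537722 (minus) and Irgm1 at chr11:48871421-48871670 (minus).
Ddx60: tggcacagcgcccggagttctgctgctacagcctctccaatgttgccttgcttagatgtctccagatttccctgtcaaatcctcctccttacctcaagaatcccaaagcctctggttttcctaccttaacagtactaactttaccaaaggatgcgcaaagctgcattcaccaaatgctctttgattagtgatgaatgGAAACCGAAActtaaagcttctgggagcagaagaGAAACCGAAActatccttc
Ifit1: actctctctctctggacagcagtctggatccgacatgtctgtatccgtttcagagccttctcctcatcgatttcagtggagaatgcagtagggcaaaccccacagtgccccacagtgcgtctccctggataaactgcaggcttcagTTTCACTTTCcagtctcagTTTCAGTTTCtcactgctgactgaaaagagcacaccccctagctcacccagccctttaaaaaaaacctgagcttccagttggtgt
Cxcl10: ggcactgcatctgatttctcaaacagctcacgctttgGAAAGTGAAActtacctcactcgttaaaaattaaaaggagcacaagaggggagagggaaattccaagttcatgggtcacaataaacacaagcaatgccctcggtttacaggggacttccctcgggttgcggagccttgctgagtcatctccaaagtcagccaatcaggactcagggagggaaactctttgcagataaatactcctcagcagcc
Bst2: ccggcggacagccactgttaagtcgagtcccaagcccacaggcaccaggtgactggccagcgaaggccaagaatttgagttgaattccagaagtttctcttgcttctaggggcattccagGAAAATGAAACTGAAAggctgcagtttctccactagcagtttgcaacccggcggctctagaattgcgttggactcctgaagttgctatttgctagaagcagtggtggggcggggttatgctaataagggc
Irgm1: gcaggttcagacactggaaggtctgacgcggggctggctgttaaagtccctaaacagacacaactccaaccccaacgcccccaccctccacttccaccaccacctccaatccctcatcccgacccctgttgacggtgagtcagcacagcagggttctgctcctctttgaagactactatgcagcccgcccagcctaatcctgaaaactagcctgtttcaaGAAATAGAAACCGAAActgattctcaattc
The matches began 53 and 19 bases before the start of Ddx60, 104 and 85 before that of Ifit1, 213 before that of Cxcl10, 130 and 124 before that of Bst2 and 30 and 24 before that of Irgm1. Of all 32851 promoter windows in the table, from 250 bases before to 50 after a start, 3.44% held a match. Each of the 5 promoters shown held a match, so they illustrate the element and do not give its share. Of all genes tested 10210 had a window, and 371 of these (3.63%) held a match. Of the 44 interferon-stimulated genes tested 33 had a window, and 18 of these held a match. As 75.0% of the list had a sequence, under the 80% set for such a check, the comparison of shares is void and is given as a description.

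Antigen presentation rose beside the interferon response. Of 27 genes for MHC class I and antigen presentation, 26 were tested, 18 were higher and none was lower (median log2 fold change 0.69). Among the 22 of them at 1 CPM or more in every library, 15 were higher and the median was 0.66. The number higher was 5 among libraries with Y-linked transcripts alone (median 0.51) and 8 without ID number 35 (median 0.71). Nlrc5, the transactivator of MHC class I genes, was at 1.04, 1.47, 1.36, 1.21 and 1.65 CPM at 3 months and at 3.14, 4.02, 4.05, 4.20 and 3.34 CPM at 19 months (log2 fold change 1.49, SE 0.14, adjusted p = 7.1e-05). Psmb8, a subunit of the immunoproteasome, was at 1.19 to 1.65 CPM at 3 months and 3.29 to 3.91 CPM at 19 months (log2 fold change 1.31, SE 0.11), and Tap2, a subunit of the peptide transporter, at 6.88 to 7.85 and 13 to 16.8 CPM (log2 fold change 1.04, SE 0.09). The ages were separate for all 3, and for H2-T23, a non-classical class I gene (log2 fold change 0.72). The class I genes of the mouse are close copies of each other, so counts may have been shared among them, as among members of the Oas, Ifit and Slfn families.

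Among complement transcripts, those of the proteins that start the classical pathway rose. Of 24 genes 17 were tested, 8 were higher and none was lower (median log2 fold change 0.72). Among the 14 of them at 1 CPM or more in every library, 7 were higher and the median was 0.49. The number higher was 2 among libraries with Y-linked transcripts alone (median 0.41) and 4 without ID number 35 (median 0.65). C4b was at 13.1, 21.9, 13.1, 13 and 18.4 CPM at 3 months and at 72.1, 49.0, 53.3, 57.7 and 42.4 CPM at 19 months. Its groups were apart, with a log2 fold change of 1.79 (SE 0.17, adjusted p = 8.1e-05). C1qa, C1qb and C1qc, the chains of the recognition protein C1q, had log2 fold changes of 1.18, 1.09 and 1.29 (SE 0.16, 0.14 and 0.13). Serping1, the inhibitor of C1, had one of 0.79 (SE 0.11). C1qa, C1qb and Serping1 lost their calls with Y-linked libraries alone (edgeR adjusted p = 0.051 to 0.069), whereas C1qc kept its own. Replicate 1 was the highest older library for C1qa (53.9 CPM, others 28.4 to 33.2) and C1qb (50 CPM, others 29.7 to 34.6). C3, the central component, was at 0.860, 3.47, 0.929, 0.916 and 1.56 CPM at 3 months and at 12.2, 4.46, 2.98, 3.05 and 4.64 CPM at 19 months. The ages overlapped for C3, with a log2 fold change of 1.83 (SE 0.48, adjusted p = 0.024), and its call was lost without replicate 1, 3 or 4 of the 3 month libraries (adjusted p = 0.058, 0.061 and 0.062).

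Many genes of the lists for homeostatic and for activated microglia were higher at 19 months. Of 21 genes for homeostatic microglia 19 were tested, 12 were higher and none was lower (median log2 fold change 0.51). Of 38 genes for activated microglia and macrophages 30 were tested, 18 were higher and none was lower (median 0.77). Among those at 1 CPM or more in every library, 10 of 17 homeostatic genes (median 0.42) and 14 of 26 activation genes (median 0.59) were higher. Among libraries with Y-linked transcripts alone 3 homeostatic genes (median 0.32, of 20 tested) and 2 activation genes (median 0.57, of 30) were higher. The 3 homeostatic genes were Tyrobp, hexb and Trem2. Without ID number 35 the numbers higher were 4 (median 0.49) and 5 (median 0.80), in the same order. The homeostatic list summed to 1110 to 1320 CPM at 3 months and 1110 to 1660 CPM at 19 months. The activated list summed to 2580 to 2940 CPM and 2930 to 3720 CPM, so the ages overlapped in the sums of each list. Among the first, P2ry12, the purinergic receptor that marks resting microglia, was at 12.4, 14.6, 13.6, 13.2 and 14.9 CPM at 3 months and 15.7, 14.3, 14.4, 17.6 and 17 CPM at 19 months, which overlapped and did not pass the test (log2 fold change 0.21, SE 0.08, adjusted p = 0.085). Tmem119, a membrane protein used as a microglial marker, had a log2 fold change of 0.39 (SE 0.11, adjusted p = 0.030) with overlapping ages, and its call was lost in 6 of 10 fits that each left out 1 library (replicates 1, 3 and 4 at 3 months and 2, 3 and 4 at 19 months, adjusted p = 0.054 to 0.077). By contrast, Trem2, a receptor for lipids on microglia, was at 3.69, 4.14, 3.92, 3.83 and 4.60 CPM at 3 months and at 14.9, 10.5, 8.95, 7.69 and 9.08 CPM at 19 months. Its log2 fold change was 1.34 (SE 0.16, adjusted p = 2.8e-04), and that of Tyrobp, the adaptor through which it signals, was 1.23 (SE 0.14, adjusted p = 1.9e-04). The enzyme gene spelled hexb in the table, a lysosomal hexosaminidase abundant in microglia, rose by 0.70 (SE 0.08), and Spi1, the transcription factor PU.1, by 1.00 (SE 0.14). Whether the differences between these members exceeded their errors was not tested.

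In the activated list, Ctss, a lysosomal protease, was at 33.9, 46.5, 35.7, 36.4 and 47.0 CPM at 3 months and at 117, 74.8, 85.7, 82.8 and 94.0 CPM at 19 months (log2 fold change 1.19, SE 0.13, adjusted p = 1.7e-04). Lyz2, the lysozyme of myeloid cells, was at 11.3, 11.8, 11.7, 11.7 and 12.4 CPM at 3 months and at 85.8, 29.3, 33.4, 22.1 and 31.5 CPM at 19 months (log2 fold change 1.77, SE 0.30, adjusted p = 0.0031). Both were separate between the ages, and in both replicate 1 was the highest of the older libraries. Cd52, a surface glycopeptide of immune cells (log2 fold change 1.83, SE 0.25), Lpl, lipoprotein lipase (1.70, SE 0.35), Lgals3, galectin-3 (1.32, SE 0.19), Cd68, a lysosomal membrane protein (1.10, SE 0.21), and Fcer1g, an Fc receptor chain (0.91, SE 0.13), rose too. Among libraries with Y-linked transcripts alone the calls of Lyz2, Cd52, Lpl, Lgals3, Cd68 and Fcer1g were lost (adjusted p = 0.064 to 0.18, log2 fold change 0.73 to 1.72), whereas those of Ctss, Trem2 and Tyrobp were kept. Replicate 1 at 19 months had a mean log2 difference of 0.99 over the 26 activation genes at 1 CPM or more in every library, against 0.43 to 0.47 in the other 4 libraries and −0.08 to 0.11 at 3 months. Without this library, 18 of 30 activation genes were higher with a median of 0.56, and 12 of 19 homeostatic, 8 of 17 complement and 41 of 44 interferon-stimulated genes were higher.

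Markers of other immune cells were examined as well. Of 13 markers of perivascular and other macrophages 6 were tested and none was called, with a summed level of 21.8 to 25.9 CPM at 3 months and 20 to 27.8 CPM at 19 months over all 13 genes. Of 26 markers of T, B and plasma cells, 18 were in the table and none reached the level for testing. Their summed level was 1.43, 1.54, 1.78, 1.44 and 2.24 CPM at 3 months and 4.77, 3.29, 4.93, 2.52 and 4.02 CPM at 19 months, and thus small but higher in each older library. Without the filter on low counts, where 1001 of 18431 genes were called (5.43%) and 743 were higher (4.03%), 6 of the 18 were higher and none was lower. Cd8a, the coreceptor of cytotoxic T cells, was at 0.03 CPM on average at 3 months and at 0.38 CPM at 19 months (0.13 to 0.67 over libraries). Ccl5, a chemokine of T cells, was at 0.08 and 0.55 CPM on average. Cd8a and Ccl5 were chosen after their values were seen, and both lie far below the level of the microglial transcripts.

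Of 28 genes of reactive astrocytes 20 were tested, 6 were higher and 1 was lower (median log2 fold change 0.19). Beside Cxcl10, Aspg, an asparaginase, was at 2.75, 2.89, 2.03, 2.08 and 2.83 CPM at 3 months and at 6.28, 5.45, 5.49, 4.71 and 4.83 CPM at 19 months (log2 fold change 1.09, SE 0.13, adjusted p = 3.4e-04). The lower gene was Cryab, a small heat shock protein that is also listed with myelin (log2 fold change −0.35, SE 0.08), whose call was lost without replicate 4 at 19 months (−0.28) and without replicate 2 at 3 months, where it rounds to −0.30. Among 25 markers of astrocytes and Bergmann glia, 1 was called, Kcnj10, the glial potassium channel, which was lower (log2 fold change −0.41, SE 0.13, adjusted p = 0.047). It was at 303, 455, 328, 315 and 429 CPM at 3 months and at 241, 263, 237, 317 and 314 CPM at 19 months, so the ages overlapped, the 2 highest values being those of the younger libraries with Y-linked transcripts. Its call was lost without any 1 of replicates 2, 3, 4 and 5 at 3 months or 1, 2 and 3 at 19 months (adjusted p = 0.055 to 0.10). Aldh1l1 (log2 fold change −0.10) and Slc1a3 (−0.28), which define astrocytes and Bergmann glia, were not called.

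**Figure D2:**
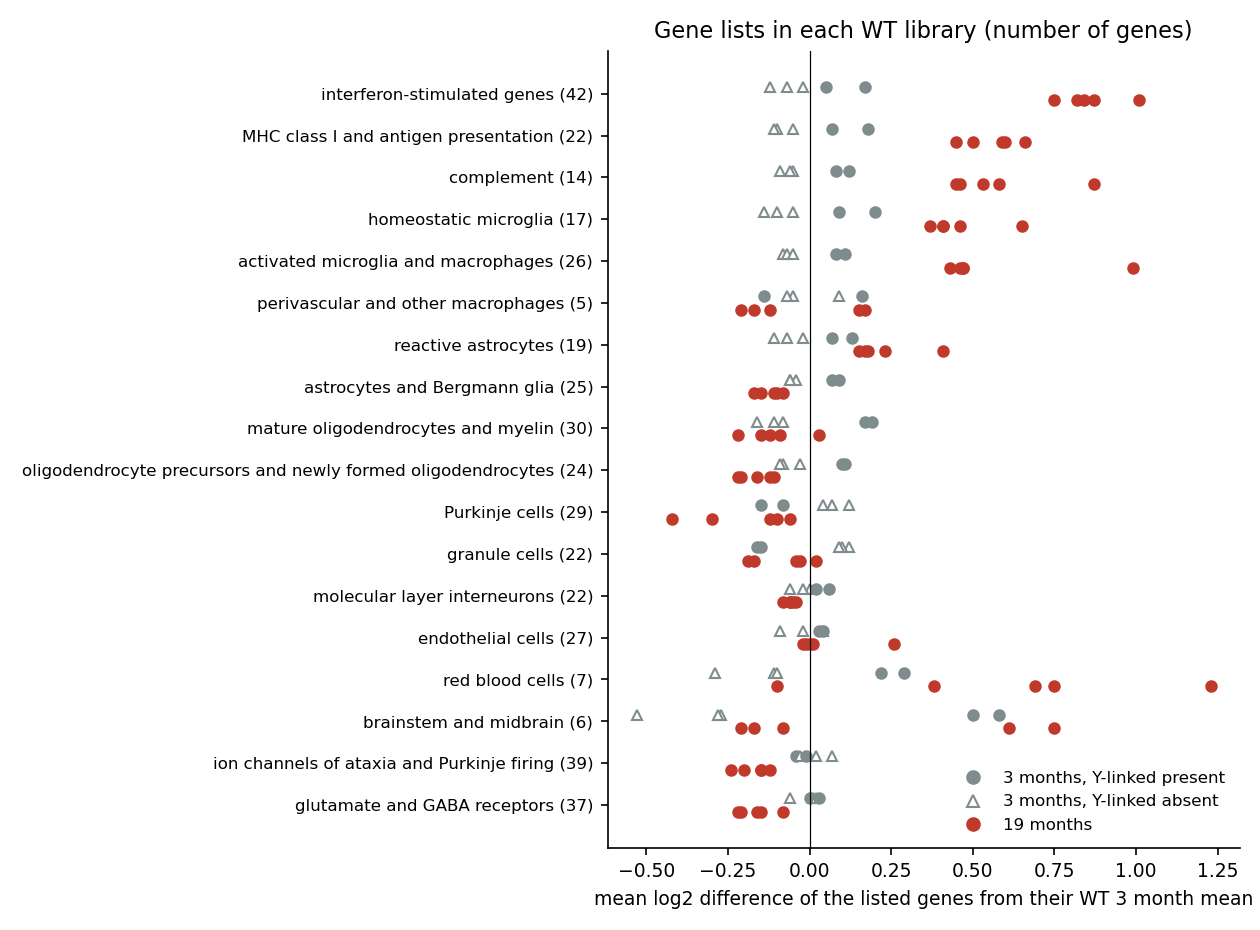
Mean log2 difference of the genes of 18 lists from their 3 month mean (horizontal axis) in each WT library, with the number of genes at 1 CPM or more in all 10 libraries in brackets. Grey marks 3 months (open triangles, no Y-linked transcripts) and red 19 months, each point being 1 library; the 5 immune lists lie apart between the ages, whereas those of neurons, myelin and brainstem differ within an age by Y-linked transcripts or between replicates.

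In the oligodendrocyte lineage, a transcript of the intermediate stage fell, while the defining precursor markers did not pass the test. Of 26 genes of precursors and newly formed oligodendrocytes 25 were tested, 6 were lower and none was higher (median log2 fold change −0.13). Of the 25, 17 lay below 0 and 8 above. The number lower was 3 without replicate 3 at 19 months, 3 among libraries with Y-linked transcripts alone and 2 without ID number 35. Gpr17, a receptor found on differentiating oligodendrocytes, was at 20.2, 24.3, 22.3, 21.9 and 22.7 CPM at 3 months and at 8.50, 11.7, 9.93, 6.54 and 10.5 CPM at 19 months. All older libraries lay under all younger ones (log2 fold change −1.24, SE 0.13, adjusted p = 1.1e-04). The mean of Gpr17 was 20.7 CPM at 6 months and 14.9 CPM at 12 months. Within ID number 10, from 6 to 19 months, the log2 fold change of Gpr17 was −0.50. The median of the list was 0.045 there, so its direction was not the same in all comparisons. Tnr, tenascin R, fell by 0.44 (SE 0.04, adjusted p = 9.0e-05) and Ncan, neurocan, by 0.55 (SE 0.11, adjusted p = 0.0075), both components of the extracellular matrix. Of the defining precursor markers, Pdgfra had a log2 fold change of −0.05 and Cspg4 of −0.13, and neither was called.

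Myelin transcripts went in both directions. Of 31 genes of mature oligodendrocytes 30 were tested, 3 were higher and 5 were lower, and the median was −0.12. None was higher without any 1 of replicates 1, 3 and 4 at 3 months or 3 and 4 at 19 months, and 1 was higher without replicate 5 at 19 months. The number lower was 2 without replicate 2 and 3 without replicate 5 at 3 months, 3 without replicate 1 at 19 months, and 12 once a covariate for Y-linked expression was added. Cldn11, the tight junction protein of myelin, fell by 0.46 (SE 0.09, adjusted p = 0.0056), whereas Mbp, myelin basic protein, had a log2 fold change of −0.07 (SE 0.10, adjusted p = 0.66). In the younger group the myelin genes were on average 0.17 and 0.19 above the group mean in the 2 libraries with Y-linked transcripts and 0.08 to 0.16 below it in the other 3. In libraries with Y-linked transcripts alone the median of the list was −0.29, with 6 genes lower and none higher. Within ID number 10, from 6 to 19 months, the median was 0.15, so the direction of this list was not the same in all comparisons.

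A few Purkinje cell transcripts were slightly lower at 19 months, and the number called depended on the libraries used. All 29 markers were tested, 4 were lower and none was higher (median log2 fold change −0.19). Itpr1, the calcium release channel of the endoplasmic reticulum, was at 4640, 3910, 4880, 4390 and 4500 CPM at 3 months and at 3910, 3850, 3640, 2870 and 3060 CPM at 19 months (log2 fold change −0.36, SE 0.09, adjusted p = 0.022). Rgs8, a regulator of G protein signalling, fell by 0.37 (SE 0.09, adjusted p = 0.020), Grid2ip, a scaffold of the delta2 glutamate receptor, by 0.33 (SE 0.07, adjusted p = 0.013) and Cacna1g, the T-type calcium channel Cav3.1, by 0.32 (SE 0.09, adjusted p = 0.029). Calb1, calbindin, was not called (log2 fold change −0.17, adjusted p = 0.15). Replicates 4 and 5 at 19 months, both of ID number 12, were lowest for Itpr1, Rgs8 and Grid2ip, and their mean log2 differences over the 29 markers were −0.42 and −0.30, against −0.12 to −0.06 in the other 3. The number lower ranged from 1 to 7 when single libraries were left out (1 without replicate 4 or 5 at 19 months, 2 without replicate 1 or 3 at 3 months, 7 without replicate 2 at either age). It was 10 without ID number 10 (median −0.28). Without ID number 12, none of the 29 was called by edgeR and the median was −0.09, and in libraries with Y-linked transcripts alone none was called either (median −0.10). Each of the 4 calls was also lost without single libraries: Grid2ip without replicate 1 at 3 months or 4 at 19 months (log2 fold change −0.29 and −0.28, short of the size required), Rgs8 without replicate 4 or 5 at 19 months (log2 fold change −0.29, adjusted p = 0.051), Itpr1 without replicate 3 at 3 months or 5 at 19 months (adjusted p = 0.051 and 0.055), and Cacna1g without replicates 1, 3 or 4 at 3 months or 3, 4 or 5 at 19 months (adjusted p = 0.043 to 0.070, log2 fold change −0.33 to −0.26).

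Few markers of other neurons were called, where 1.84% of all genes tested were lower. Of 23 granule cell markers 22 were tested and 1 was called, Slc17a7, the vesicular glutamate transporter VGLUT1, which was lower (log2 fold change −0.32, SE 0.08, adjusted p = 0.026). That call was lost without replicate 1, 3 or 4 at 3 months or 4 or 5 at 19 months (log2 fold change −0.30 to −0.26). None of 22 tested markers of molecular layer interneurons, Golgi and unipolar brush cells was called by edgeR. Of 39 genes for channels that act in Purkinje firing or in ataxia, all tested, 6 were lower and none was higher (median −0.14). The number lower was 2 without replicate 3 and 3 without replicate 4 at 3 months, 0 without ID number 35 and 2 among libraries with Y-linked transcripts alone. Cacna1e, the R-type calcium channel Cav2.3, was at 304, 213, 274, 224 and 203 CPM at 3 months and at 171, 174, 181, 133 and 186 CPM at 19 months (log2 fold change −0.52, SE 0.12, adjusted p = 0.012). Cacna1a itself was at 426, 326, 402, 382 and 336 CPM at 3 months and at 326, 362, 359, 379 and 333 CPM at 19 months, which overlapped (log2 fold change −0.09, SE 0.07, adjusted p = 0.43).

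Of 40 genes for glutamate and GABA receptors 39 were tested, 4 were lower and none was higher (median −0.15), against 1 among libraries with Y-linked transcripts alone or without ID number 35. Gabra2, the alpha2 subunit of the GABA-A receptor, was at 48.2, 49.1, 50.3, 46.3 and 48.4 CPM at 3 months and at 28.6, 34, 30.8, 27.1 and 36.6 CPM at 19 months. The ages were well apart (log2 fold change −0.62, SE 0.07, adjusted p = 2.8e-04). Its mean was 34.2 CPM at 6 months and 40.9 CPM at 12 months, so the means did not fall at each step, a course that was not tested. Gabbr1 fell by 0.36 (SE 0.06) and Gabbr2 by 0.33 (SE 0.06, but −0.29 without replicate 4 at 19 months), the subunits of the GABA-B receptor. The first of them kept its call in each fit without 1 library.

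The transcripts that fell furthest belonged to no single list. Tnc, tenascin C, was at 18.8, 12.6, 21.4, 16.8 and 18.8 CPM at 3 months and at 5.21, 9.27, 9.13, 2.63 and 6.9 CPM at 19 months (log2 fold change −1.41, SE 0.27, adjusted p = 0.0056). Zfp57, a zinc finger protein that maintains methylation at imprinted loci, was at 5.46, 5.86, 4.66, 4.47 and 5.55 CPM at 3 months and at 1.58, 1.81, 2.04, 2.36 and 2.56 CPM at 19 months (log2 fold change −1.32, SE 0.14, adjusted p = 1.5e-04). Mkrn3, itself an imprinted gene expressed from the paternal allele, was at 3.13 to 4.01 CPM and at 1.38 to 1.84 CPM (log2 fold change −1.07, SE 0.11, adjusted p = 1.0e-04). All 3 were separate between the ages. Ntf3, neurotrophin-3, was at 6.77, 4.30, 4.72, 5.79 and 4.51 CPM and at 3.06, 2.21, 2.38, 1.52 and 1.96 CPM (log2 fold change −1.24, SE 0.18, adjusted p = 0.0012). Necab3, a calcium-binding protein, had an adjusted p of 7.8e-06, which no gene tested undercut. It was at 24.4, 24.5, 26, 28.2 and 23.5 CPM at 3 months and at 13.7, 13.3, 12.9, 13.8 and 14.1 CPM at 19 months (log2 fold change −0.89, SE 0.05). It was already at 14 ± 1.68 CPM at 12 months and at 22.3 ± 2.24 CPM at 6 months (SD, n = 5 each). Col23a1, a membrane collagen (log2 fold change −1.01), Nid1, nidogen of basement membranes (−0.77), Rasal1, a Ras GTPase-activating protein (−0.72), Ramp3, which modifies calcitonin family receptors (−0.70), Hs6st3, a heparan sulfate sulfotransferase (−0.74), Ngef, a guanine nucleotide exchange factor (−0.73), and Rem2, a small GTPase (−0.68), fell as well, each without overlap between the ages. Among libraries with Y-linked transcripts alone the calls of Tnc (adjusted p = 0.12), Ntf3 (0.061), Hs6st3 (0.12), Ngef (0.056) and Rem2 (0.23) were lost by edgeR, with log2 fold changes of −1.25 to −0.58.

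Positions of the genes described most fully, in the GENCODE M21 annotation of GRCm38, are as follows. Irf7 lies on chromosome 7 from 141262706 to 141266481, Oasl2 on chromosome 5 from 114896936 to 114912234, C4b on chromosome 17 from 34728380 to 34743882 and Trem2 on chromosome 17 from 48346401 to 48354147. Tnc lies on chromosome 4 from 63959785 to 64047015, Zfp57 on chromosome 17 from 37001163 to 37010635, Mkrn3 on chromosome 7 from 62417593 to 62420139, Necab3 on chromosome 2 from 154544399 to 154558890 and Itpr1 on chromosome 6 from 108213096 to 108551109. Counts were of reads over the exons of whole genes, so no transcript isoform is resolved.

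**Figure D3:**
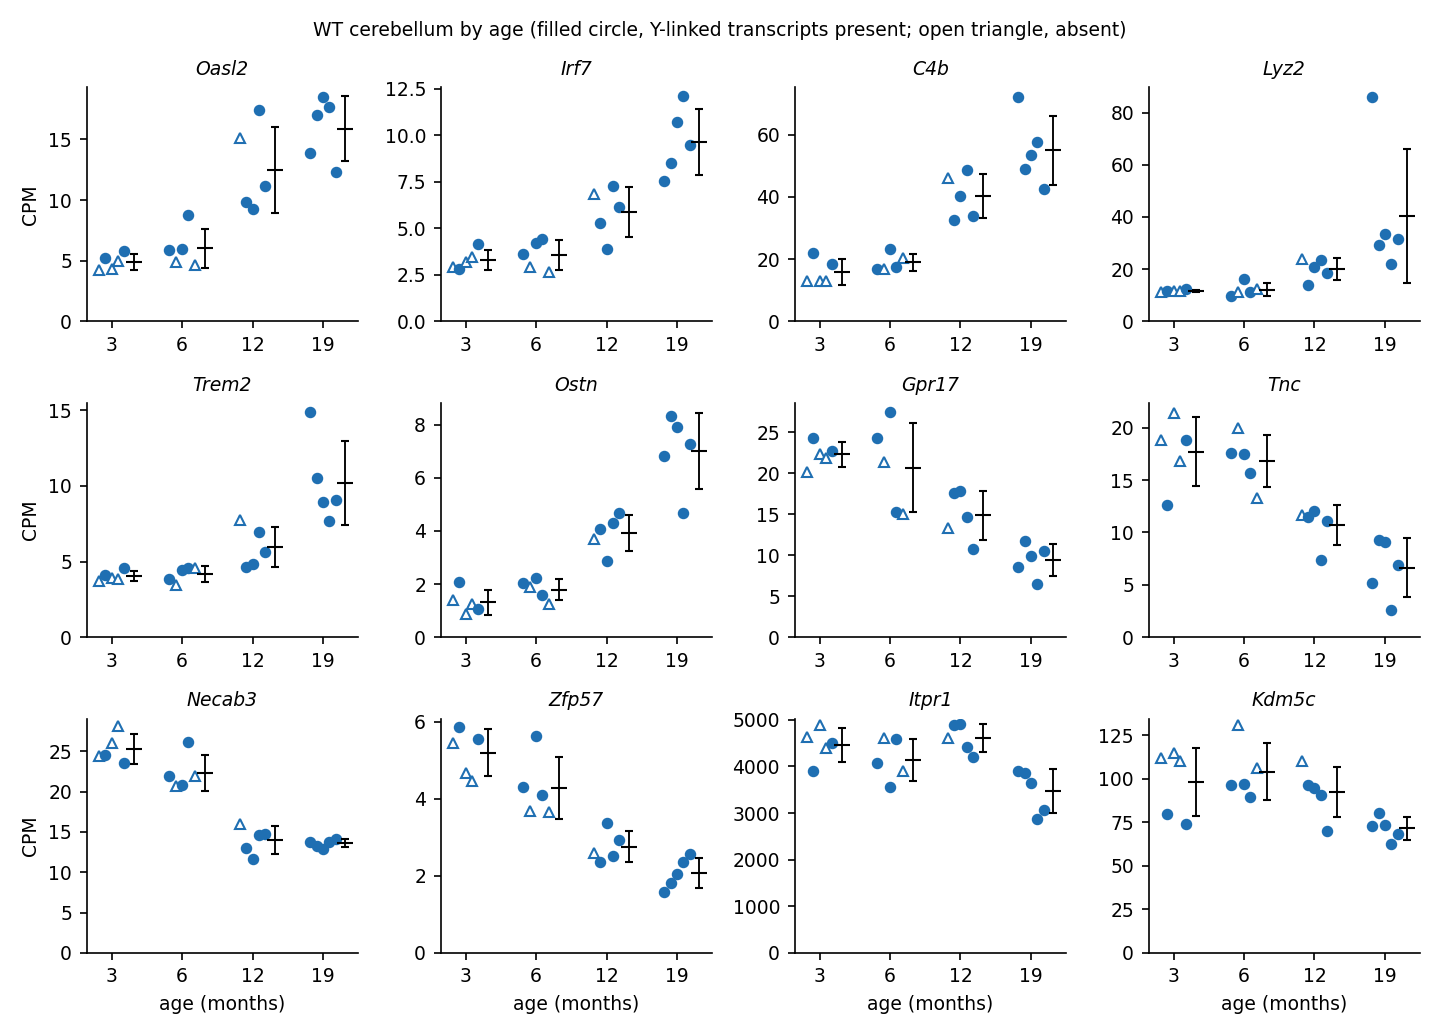
Level of 12 genes in each of the 20 WT libraries (vertical axis, CPM) by age in months (horizontal axis), with the mean and SD of 5 libraries in black. Filled circles have Y-linked transcripts and open triangles do not; Oasl2, Irf7, C4b, Lyz2, Trem2 and Ostn are highest on average at 19 months, Gpr17, Tnc, Necab3 and Zfp57 lowest, and Kdm5c separates by Y-linked transcripts at 3 months.

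Outside the immune lists, Ostn, the secreted peptide osteocrin, showed the largest increase among genes at a mean log2 CPM no lower than 1. It was at 1.38, 2.08, 0.852, 1.23 and 1.05 CPM at 3 months and at 6.84, 8.34, 7.90, 4.69 and 7.29 CPM at 19 months (log2 fold change 2.42, SE 0.22, adjusted p = 6.2e-05), with means of 1.79 CPM at 6 months and 3.92 CPM at 12 months. In the clock, the output gene Dbp was at 73.9, 64.5, 69.0, 72.8 and 71.1 CPM at 3 months and at 52.0, 45.7, 51.7, 42.1 and 51.2 CPM at 19 months (log2 fold change −0.53, SE 0.06, adjusted p = 2.8e-04). Of 18 clock genes tested 3 were lower, Dbp, Ciart (log2 fold change −0.59) and Nr1d1 (−0.44), and 1 was higher. No source used here gives the hour of collection. Tet1, a DNA demethylase, fell by 0.36 (SE 0.06), and Mcm6, a replication helicase subunit, rose by 0.50 (SE 0.08). Th, tyrosine hydroxylase, which some Purkinje cells of mouse express and which was listed with brainstem, rose by 0.53 (SE 0.08). Cldn5, the endothelial tight junction protein, rose by 0.54 (SE 0.10), and 2 of 27 endothelial markers were higher and 1 lower in all. Over all genes tested, 4.91% were higher and 1.84% lower. With Y-linked libraries alone, Ciart, Nr1d1, Tet1, Mcm6, Th and Cldn5 lost their calls (edgeR adjusted p = 0.054 to 0.15). Their log2 fold changes there were −0.65, −0.32, −0.28, 0.42, 0.58 and 0.56, in that order. Nr1d1 and Tet1 were also not called with the covariate for Y-linked expression. Ostn and Dbp kept their calls in these fits.

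Several other groups had small median log2 fold changes, with some of their genes called. Their counts stand beside 4.91% higher and 1.84% lower over all genes tested. Of 48 tested genes for ER folding and its stress response, 2 were lower, Hspa5 (BiP, log2 fold change −0.37) and Pdia4, a disulfide isomerase (−0.34), and none was higher (median −0.05). The call of Pdia4 was lost without replicate 4 at 19 months (log2 fold change −0.27) and that of Hspa5 without replicates 2, 3 or 4 at 3 months or 3, 4 or 5 at 19 months (adjusted p = 0.042 to 0.078). Xbp1, a transcription factor of this response, had a log2 fold change of −0.30 (SE 0.09, adjusted p = 0.040), just short of the size required for a call. Of 29 genes of cytosolic heat shock 4 were lower and none was higher (median −0.11), and 26 lay below 0. Of the 10 fits without 1 library, the call was lost in 1 for Hsph1, 2 for Cryab, 7 for Dnajb1 and 9 for Serpinh1. Of 61 nuclear genes of mitochondrial electron transport 1 was called, Cox8a, which was higher (log2 fold change 0.46), and of 13 genes of the mitochondrial genome none was called by edgeR (median −0.17). Of 27 genes of cholesterol synthesis 1 was lower, Ebp, a sterol isomerase (log2 fold change −0.36, but −0.29 without replicate 4 at 19 months). Of 40 lysosomal genes 6 were higher and none was lower (median 0.09), among them Ctsh, a cathepsin (log2 fold change 0.59, SE 0.07).

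Blood content differed between the libraries. Of 7 tested red blood cell genes 3 were higher at 19 months, among them Hba-a1, an alpha globin, at 9.58, 19.1, 11.4, 12.0 and 15.4 CPM at 3 months and at 22.5, 42.9, 21.7, 59.1 and 13 CPM at 19 months. The ages overlapped (log2 fold change 1.25, SE 0.35, adjusted p = 0.033), and reads may be shared with Hba-a2, an almost identical copy. The call of Hba-a1 was lost without replicates 1, 3, 4 or 5 at 3 months or 2 or 4 at 19 months (adjusted p = 0.050 to 0.077). Of the 7 genes, 0 were higher without replicate 3 at 3 months, 1 without replicate 4 at 3 months and 6 without replicate 5 at 19 months. The summed level of the 8 red blood cell genes was 183 to 274 CPM at 3 months and 196 to 551 CPM at 19 months. Its part in other results was not tested. Markers of the choroid plexus summed to 1770 to 5460 CPM at 3 months and 3820 to 5850 CPM at 19 months, and none of the 21 was called by edgeR.

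Sex, as read from Y-linked transcripts, moved with age in these libraries. Ddx3y, a Y-linked RNA helicase, was at 0.0132, 146, 0, 0 and 138 CPM at 3 months and at 149, 149, 154, 154 and 154 CPM at 19 months. Of 6 tested X-linked genes that escape inactivation, 4 lay below 0 and 2 of these were called lower. Kdm5c, a histone demethylase and the X-linked counterpart of Kdm5d, was at 112, 79.9, 115, 110 and 74.2 CPM at 3 months and at 73.1, 80.5, 73.6, 62.5 and 68.3 CPM at 19 months (log2 fold change −0.45, SE 0.12, adjusted p = 0.025). The 2 younger libraries with Y-linked transcripts lay within the range of the older ones or close to it, and the log2 fold change among libraries with Y-linked transcripts was −0.11. Eif2s3x, a translation initiation factor and the counterpart of Eif2s3y, gave −0.45 and −0.12 in these fits. Kdm5c was not called without replicate 1, 3 or 4 at 3 months or 5 at 19 months (adjusted p = 0.055 to 0.060), nor was Eif2s3x without replicate 4 at 3 months (adjusted p = 0.050 after rounding). Prl2c3, a prolactin family gene with near copies in the genome, was at 6.82, 3.09, 7.39, 4.88 and 3.06 CPM at 3 months and at 2.50, 2.46, 3.83, 2.55 and 3.17 CPM at 19 months, and its log2 fold change went from −0.79 to −0.09. Its call was lost in 7 of the 10 fits without 1 library (replicates 1, 3 and 4 at 3 months and 1, 2, 4 and 5 at 19 months, adjusted p = 0.078 to 0.12).

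Among libraries with Y-linked transcripts alone, 2 at 3 months and 5 at 19 months, 222 of 13376 genes were called (1.66%), 133 higher (0.994%) and 89 lower (0.665%). These libraries are part of the 10 from which the 891 genes were called. Signs and medians of those genes in this fit are therefore not independent of the calls. All 891 genes called over 10 libraries kept their sign, 168 were called again, and 19 had a log2 fold change under 50% of that over 10 libraries. The median log2 fold change of the 648 higher genes was 0.55 over 10 libraries and 0.51 here, and that of the 243 lower ones −0.39 and −0.37. Of 44 interferon-stimulated genes 26 were higher and none was lower (median 0.72), and all 96 immune genes called over 10 libraries lay above 0, although 38 of the 137 immune genes tested here were called. Irf7 (log2 fold change 1.46), C4b (1.44), Trem2 (1.21), Ostn (2.17), Zfp57 (−1.46), Gpr17 (−1.32) and Necab3 (−0.83) remained called with these 7 libraries. Without the 3 libraries of ID number 35, again 2 against 5, 161 of 13267 genes were called, 125 higher and 36 lower.

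**Figure D4:**
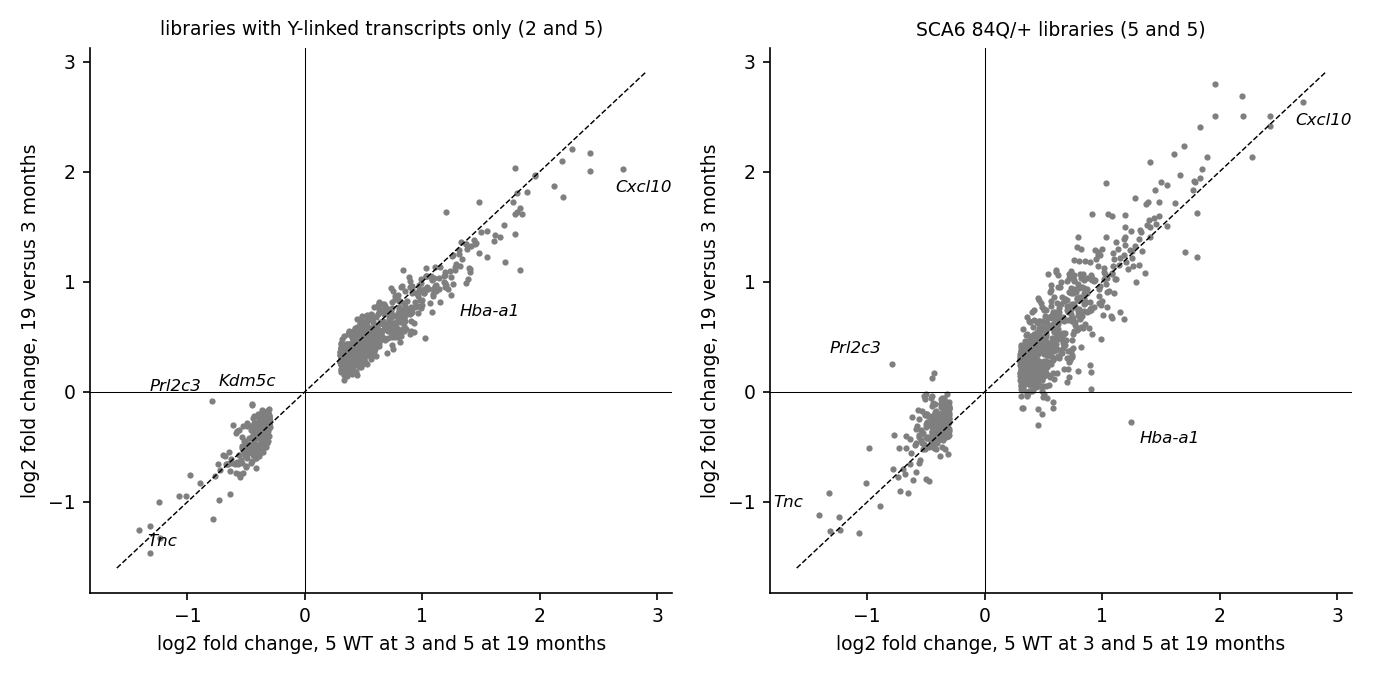
Log2 fold change between 19 and 3 months of the genes called over the 10 WT libraries (horizontal axis) against that among the WT libraries with Y-linked transcripts alone (left, 2 and 5 libraries, which are part of the 10) and among SCA6 84Q/+ libraries (right, 5 and 5), each point 1 gene and the dashed line equality. On the left all 891 points keep their sign, with Prl2c3 and Kdm5c close to 0 on the vertical axis, and on the right 859 of 877 do, with Hba-a1 at −0.27 among the exceptions.

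The SCA6 84Q/+ mice gave the same comparison in other animals. Their ID number was 34 in every younger library and 9, 12 or 14 in the older ones. Age and ID number thus cannot be told apart there either, and 34, 9 and 12 also occur in WT. Y-linked transcripts were absent from replicate 1 at 3 months and from replicates 2 and 5 at 19 months. In SCA6 84Q/+ 889 of 13264 genes were called between the ages (6.7%), 670 higher (5.05%) and 219 lower (1.65%). Of the genes called in WT 513 were called in SCA6 84Q/+ as well, 57.6% of the WT and 57.7% of the SCA6 84Q/+ calls, all in the same direction, and 859 of the 877 WT calls tested there had the same sign. Oasl2 (log2 fold change 2.23), C4b (1.90), Trem2 (1.28), Ostn (2.41), Zfp57 (−1.26), Gpr17 (−1.25) and Necab3 (−1.03) were called in both genotypes. Interferon-stimulated genes were higher in 41 of the 44 tested (median 1.11) and activation genes in 19 of 29 (median 0.94). Hba-a1 was not called there (log2 fold change −0.27), nor were Itpr1 (−0.23) and Cox8a (−0.30). A test of the interaction of age and genotype called none of 13311 genes (0.0%) by edgeR, with 864 at an unadjusted p under 0.05, and none by DESeq2, with 938. A failure to pass this test does not show that the genotypes age alike. The labels of replicates 2 and 3 of the younger SCA6 84Q/+ group were doubted in an earlier analysis of these data. With both left out, 522 of 13277 genes were called between the ages in SCA6 84Q/+, 495 of them among the 889. The counts shared with WT given above include both libraries.

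ID number 10 held 2 WT libraries at 6 months (replicates 4 and 5) and 2 at 19 months (replicates 2 and 3), which allowed a comparison of ages within 1 number. Of 13395 genes 1196 were called (8.93%), 520 higher (3.88%) and 676 lower (5.05%). Both comparisons share the 2 older libraries, so they are not independent. Replicate 5 at 6 months had no Y-linked transcripts, whereas replicate 4 and the 2 older libraries did. Sex was thus not balanced between the ages within this number either. Of the 648 genes higher in WT between 3 and 19 months, 531 were also above 0 between 6 and 19 months within this number, and 213 of 242 tested lower genes were below 0. Log2 fold changes were 1.43 for Irf7, 1.42 for C4b, 1.08 for Trem2, 2.51 for Ostn, −0.88 for Necab3, −1.02 for Zfp57 and −0.50 for Gpr17. For Cryab (0.14) and Hspa5 (0.40) the sign was opposite to that between 3 and 19 months.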

How the data were processed

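Whole-cerebellum polyA RNA was sequenced as 150 bp paired-end reads. The authors used Trimmomatic for trimming, STAR for alignment (mm10 per the labels) and HTSeq for counting, and deposited raw counts per gene in 1 table. No source used here gives versions, annotation or strand setting. Libraries were grouped by title. Counts were tested with edgeR 4.0.16 (R 4.3.3; trimmed mean of M values, quasi-likelihood test, Benjamini-Hochberg adjustment) after a filter of 1 CPM in every library of at least 1 group. Printed CPM values were scaled over all 40 libraries. Alternatives used DESeq2 1.42.0, limma 3.58.1 and sva 3.50.0, other filters and factors, and libraries left out. Named genes were the highest and lowest fold changes, up to 4 called members of each list by adjusted p, list markers and sex-linked genes. The members and lists were chosen with earlier results of these data known. Gene positions came from GENCODE M21, which held 89.1% of symbols. No pair of libraries agreed within sampling noise (45 pairs, lowest chi-square per degree of freedom 9.02). The scripts were tested on simulated data. Some genes are not reported here.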

Additional observations from a re-analysis of the deposited data

Results flagged for a closer look

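Of 340 groups of 5 values examined, 25 held a library whose gap to the nearest other exceeded Dixon's 95% critical value of 0.71 for the whole range, where chance gives about 1 group in 20, and 10 of the 25 concerned replicate 1 at 19 months. In that library, the one with the lowest total count, the values far from the other 4 were 12.2 CPM for C3, 85.8 CPM for Lyz2, 9.44 CPM for Lpl, 50 CPM for C1qb, 53.9 CPM for C1qa, 4.72 CPM for Cxcl10, 44.0 CPM for Cp and 12.8 CPM for Cd68. The same library stood apart by a mean log2 difference of 0.99 for activated microglia and macrophages and of 0.26 for lysosome genes. The part of this library's depth or composition in these values was not tested.

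At 19 months, Ifit1 at 23.1 CPM and Egfl7 at 2.56 CPM stood apart in replicate 3, Cox8a at 68.3 CPM in replicate 2, Ncan at 15.2 CPM in replicate 5, and Col5a3 at 12.1 CPM and Sgk1 at 133 CPM in replicate 4. Replicate 4 was also apart by mean log2 differences of 0.26 for endothelial cells and 0.50 for glucocorticoid targets. At 3 months, C3 at 3.47 CPM, Th at 7.25 CPM, Dnajb1 at 62.6 CPM and a mean log2 difference of 0.09 for neuropeptides and growth factors stood apart in replicate 2. Mycl at 7.16 CPM and Cd68 at 4.33 CPM did so in replicate 5, and a mean log2 difference of −1.01 for choroid plexus did so in replicate 3.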

How the results depend on the processing

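With 10 WT libraries 891 genes were called. That number was 222 with libraries holding Y-linked transcripts alone, 531 without ID number 34, 161 without ID number 35, 564 with Y-linked expression as a covariate and 2124 with no minimum fold change (1127 higher and 997 lower). Each single library left out gave 683 to 1022 calls. Under all other settings the count was within 1.5 times of 891, including 999 by DESeq2, 1001 with no filter on low counts and 980 with upper-quartile factors, which raised the share of calls that were higher from 72.7% to 82.7%. In SCA6 84Q/+ 889 genes were called, against 522 without replicates 2 and 3 at 3 months, 525 with libraries holding Y-linked transcripts alone, an alternative chosen after seeing the data, and 1639 with no minimum fold change, with 674 to 1029 for each single library left out. The interaction gave 0 calls by edgeR in every setting run, and 0 by DESeq2, which was run for it on all 20 libraries only. The genes not called that changed direction were Uty, Kdm6a and Cacna1a: with Y-linked libraries alone or with the covariate, the log2 fold change of Uty was −0.06, that of Kdm6a 0.17 and that of Cacna1a 0.08. Of 113 called genes described, 37 were called under every alternative that tested them (up to 26) and 74 under every single library left out, 67 lost their call with Y-linked libraries alone, and none reversed. The alternatives share libraries with the fit that gave the calls, so they are not independent of it.

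Replicate numbers were shared by the ages but did not pair the libraries (correlations of deviations −0.254 to 0.349), and with a replicate block 793 genes were called in WT and 857 in SCA6 84Q/+. Age and ID number cannot be told apart, sex was unbalanced between the ages, and depth limits the genes below 1 CPM, which were left out. The causes of these shifts were not tested.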
